A study of Drosophila melanogaster with 17 samples.

Results

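The glial translatome of flies without head injury was read from 9 TRAP-seq libraries, all of the sham libraries among the 17 of the series. TRAP-seq, short for the affinity purification and sequencing of translating ribosomes, pulls down ribosomes that carry a GFP tag in a chosen cell type and sequences the RNA bound to them. Here the pan-glial driver repo-GAL4 expressed UAS-GFP::RpL10A, a tagged protein of the large ribosomal subunit, in sham and TBI flies alike. The other 8 libraries came from flies that had received traumatic brain injury (TBI) by strikes to the head. TBI flies gave 3 libraries on D3, 3 on D6 and 2 on D10, and sham flies, kept in parallel without strikes, gave 3 on each of D3, D6 and D10.

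All flies were raised at 25 °C in a cycle of equal light and dark, and heads were taken at ZT0, the time of lights-on. The day names are those of the sample labels. In the paper these days are counted as 1, 3 and 7 after the injury. The sex of the flies is female by the labels and male by the paper. The labels do not say whether replicates came from separate cultures, so each p-value measures the spread between these libraries, which may be partly technical. The libraries are given as r1 to r3, the replicate numbers of the labels.

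Glia are the support cells of the nervous system. In the fly they insulate neurons, form the blood-brain barrier, take up and recycle neurotransmitters and engulf debris, and nearly all of them express the homeodomain protein Repo. Astrocyte-like, ensheathing, cortex and surface glia divide these tasks between them. A ribosome pulldown reports which RNAs sit on ribosomes, and RNA of neighbouring cells can be carried along in the homogenate. In pooled heads, fewer cells of a type and less RNA per cell cannot be told apart.

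Levels are TPM, relative transcript abundances which are corrected for transcript length, and genes were ranked by them. Of the 13479 genes listed, 11939 were above 0 TPM in at least 1 sham library and 8719 in all 9. The listed genes summed to between 842896 and 854953 TPM per sham library. Between 9880 and 10638 genes per library were above 0. TPM holds no read count, so the counting error of a value is unknown. Sham D6 r2 held RNA of midgut and ovary genes that the other sham libraries nearly lacked (described below). Correlations (Pearson's r of log2 values, across 8467 genes) were 0.922 to 0.976 between libraries of the same day. They were 0.920 to 0.978 between days. The lowest value of both ranges involved sham D6 r2, whose highest correlation with another sham library was 0.944. For each other sham library the highest was 0.971 to 0.978. The genes described below were drawn from the highest, the most and the least variable, the leaders of each functional group and the cell type markers.

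The glial markers were present in every sham library. The transcript of repo (chromosome arm 3R, 18236192 to 18239602, plus strand), the gene whose driver directs the tag, was listed at 82.3, 66.2 and 49.6 TPM on D3. It stood at 52.6, 47.5 and 49.2 TPM on D6 and at 92.7, 45.1 and 34.8 TPM on D10. The highest and the lowest of these values fell on the same day, and the median of 49.6 TPM placed repo above 87.1% of the listed genes. The astrocyte gene alrm, a leucine-rich repeat protein (3R, 25381065 to 25382781, minus strand), held 587, 582 and 402 TPM on D3. It held 380, 433 and 433 TPM on D6 and 591, 384 and 374 TPM on D10, with rank 259 by median. Like repo, alrm was highest in sham D10 r1 and lowest in sham D10 r3.

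Glial genes of neurotransmitter recycling were among the higher ones. Glutamine synthetase 2 (Gs2), which turns glutamate into glutamine, ranked 74th with a median of 2517 TPM (lowest 2087, highest 4145). The GABA transporter Gat had a median of 154 TPM (130.5 to 259), and the glutamate transporters Eaat1 and Eaat2 had medians of 96.4 and 89.8 TPM. The Na+/K+ pump subunit nrv2 stood at 600.1 TPM (446 to 962). Further enzymes of glial transmitter handling were b (black, which makes beta-alanine) at 329 TPM and e (ebony, which joins beta-alanine to dopamine or histamine) at 130 TPM.

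Markers of each glial class were present. For the blood-brain barrier, the trehalose transporter Tret1-1 led with 328 TPM, followed by the G protein-coupled receptor moody at 95.3 TPM. The sugar transporter pippin, CG6126, the efflux pump Mdr65 and the septate junction protein Gli had medians of 50.2, 50.4, 36.2 and 16.6 TPM. Cortex glia were marked by the exchanger zyd at 74.0 TPM and the adhesion protein wrapper at 60.5 TPM. Ensheathing glia were marked by the engulfment receptor drpr at 29.6 TPM and axo at 15.8 TPM. Of the 19 markers on the glial lists, Cyp4g15 alone was listed at 0 in all 9 sham libraries. Summed over a list, pan-glial markers took 0.309% to 0.593% of the listed TPM, astrocyte markers 0.0723% to 0.126%, surface markers 0.0536% to 0.0887%, cortex markers 0.0133% to 0.0239% and ensheathing markers 0.0116% to 0.0224%.

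**Figure D1:**
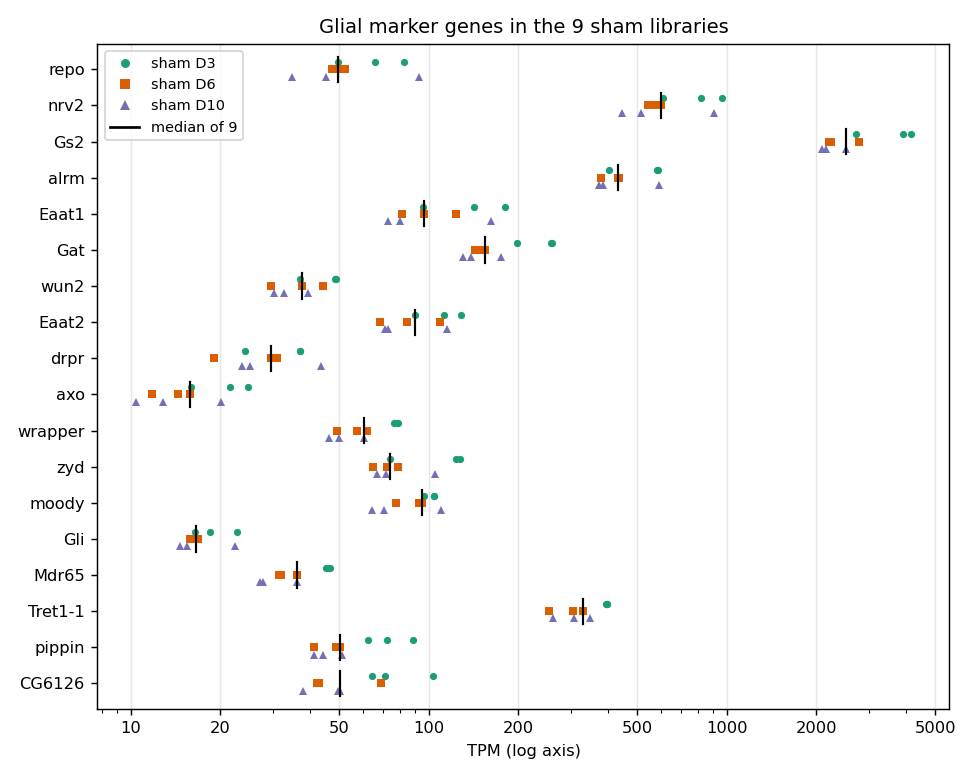
TPM (log axis) of 18 glial marker genes in the 9 sham libraries, with circles for D3, squares for D6, triangles for D10 and a bar at the median of 9. Gs2 is highest with a median of 2517 TPM and axo lowest with 15.8 TPM, and in each row the mean of the D3 points is above those of D6 and D10.

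Genes of other head cells were also present, some of them at far higher levels. The photoreceptor list (16 listed genes) took 5.26% to 7.31% of the listed TPM with a median of 5.91%. Most of this was ninaE, with a median share of 5.08%, and the other 15 genes took 0.705% to 1.09%. Of the list, 11 genes had a median of at least 100 TPM. The neuron list was lower, at 0.112% to 0.201%. Its vesicle protein nSyb stood at 637 TPM, the RNA-binding protein elav at 105 TPM and the active-zone protein brp at 4.85 TPM, and none of its 14 genes had a median of 0.

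Muscle genes took 0.189% to 0.290% (Act57B, an actin, 386 TPM) and the head fat body list 0.732% to 2.61%. Most of the fat body share came from the yolk protein genes Yp1 and Yp3, while Yp2 and Fbp1 had a median of 0. Yp2 was listed at 61.2 TPM in sham D10 r1 and at or nearly at 0 in the others. Whether these low values were failed estimates was not tested. The hemocyte list took 0.0127% to 0.0195%, with its defining gene Hml at 3.01 TPM. A list of 15 midgut genes took 0.00105% to 0.00408% in 8 libraries and 0.341% in sham D6 r2. Of these genes, whe and lcs were put on the list with their behaviour in these libraries known. In the paper, pulldown and whole-head input were compared. It reported alrm, Gli and repo as enriched, while the neuronal genes elav and nSyb did not change significantly. Whole-head input was not among the libraries of this series, so enrichment over it could not be computed here. The presence of a gene in these levels therefore does not show that its RNA came from glia. The part of RNA from other cells in the levels given here was not tested.

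The RNA of the pulldown was concentrated in few genes. The single highest gene took between 4.56% and 6.22% of the listed TPM of a library, the 10 highest took 14.9% to 16.2% and the 100 highest took 46.5% to 55.5%. Between 77 and 123 genes (median 93) sufficed to reach 50% of the listed TPM. By median over the 9 libraries, 144 genes were at 1000 TPM or more, 930 at 100 or more, 5102 at 10 or more and 8253 at 1 or more.

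The highest gene in every sham library was ninaE, which encodes Rh1, the rhodopsin of the outer photoreceptors (3R, 19886255 to 19888206, minus strand). Its level was 39772, 41839 and 40129 TPM on D3, 42952, 38968 and 47489 TPM on D6, and 52558, 44660 and 43289 TPM on D10. The lowest of these was 1.76 times the highest value of the gene ranked next. RpL41, a very short protein of the large ribosomal subunit, followed with 19193, 19202 and 18915 TPM on D3, 21721, 22136 and 19070 TPM on D6, and 12991, 17763 and 20629 TPM on D10. These were the only neighbours among the 20 highest genes whose ranges did not overlap, out of 19 neighbouring pairs.

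MtnA, a metallothionein that binds copper and other metals, came next (3R, 9783407 to 9784370, minus strand). It was listed at 7320, 9505 and 13237 TPM on D3, at 5624, 18392 and 18390 TPM on D6, and at 9348, 17528 and 14032 TPM on D10. The D6 libraries alone spanned its whole range, and MtnA lay below RpL41 in 9 of 9 libraries. Yp1, a yolk protein made by the female fat body and ovary (X, 10053811 to 10055498, plus strand), held 15984, 9519 and 12217 TPM on D3. It held 9412, 6849 and 4502 TPM on D6 and 3697, 5614 and 12193 TPM on D10. With a highest value 4.32 times the lowest, Yp1 was the only gene from 1000 TPM upwards to span 4-fold or more.

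CG15201, a gene that the annotation names by number only (X, 11144120 to 11144809, plus strand), ranked 5th. It stood at 8416, 10239 and 8212 TPM on D3, 5484, 10991 and 9256 TPM on D6, and 7852, 9878 and 8181 TPM on D10. Except for the low value in sham D6 r1, its libraries lay between 7852 and 10991 TPM. The mitochondrial gene mt:CoII, subunit II of cytochrome c oxidase, had a median of 7956 TPM (6167 to 12177). Of the remaining genes among the 20 highest, 12 encoded ribosomal proteins, with medians between 5515 TPM (RpS25) and 7666 TPM (RpL21). The other two were CG6770 at 6222 TPM (3472 to 9044) and Obp44a, of the odorant-binding protein family, at 5996 TPM (3641 to 7449).

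**Figure D2:**
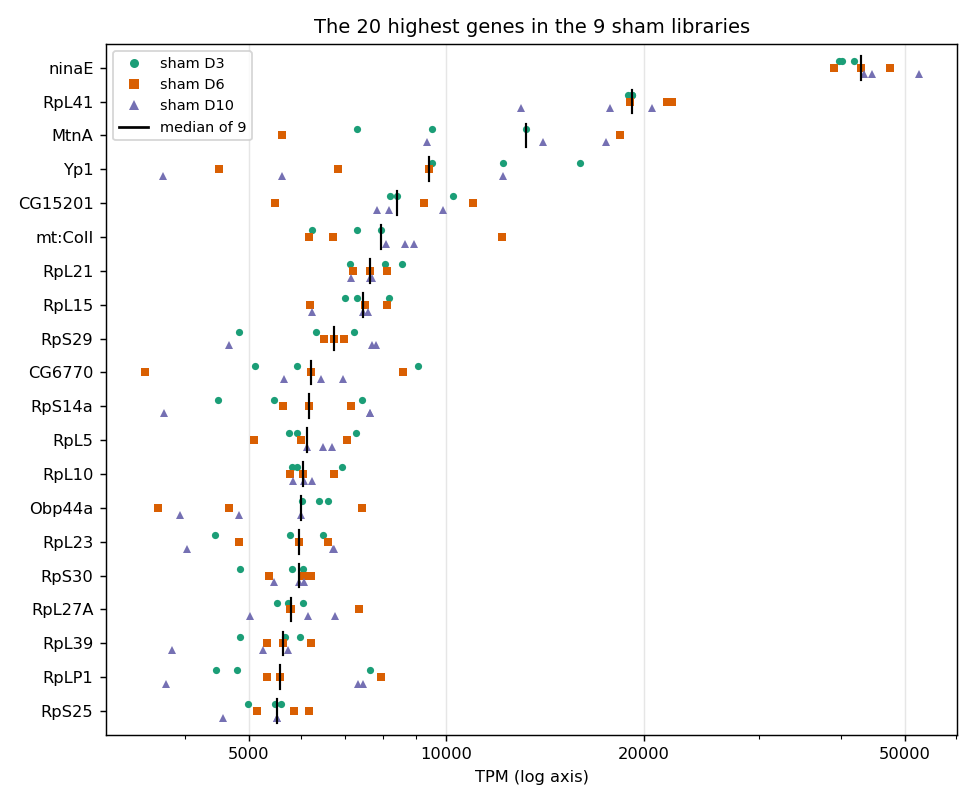
TPM (log axis) of the 20 highest genes in the 9 sham libraries, ordered by median from top to bottom, with circles for D3, squares for D6, triangles for D10 and a bar at the median of 9. The ninaE points, from 38968 to 52558 TPM, stand clear of all others, while MtnA and Yp1 spread most.

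The membership of the 100 highest genes was nearly the same in each library. In the top 100 of all 9 libraries, 85 genes were found, and 93 genes were in the top 100 of each of the 3 days by day median. The last gene inside was sesB, the mitochondrial ADP/ATP carrier, at 1569 TPM, and the first outside was RpL6 at 1554 TPM. Of these 100 genes, at least 65 encoded proteins of the cytosolic ribosome. The others included 3 genes of the elongation factor list (Tctp, eEF5 and eEF1beta) and 3 mitochondrially encoded subunits of cytochrome c oxidase. Both ATPsynC and sesB of the energy supply were among them too. Further members were ninaE and the arrestin Arr2 of photoreceptors, Yp1 and Yp3, MtnA, Obp44a, Gs2 and the immune peptide BomS3. On none of the lists were 19 of them, among these Cam (calmodulin), Rack1 (a scaffold on the small subunit), Nplp3, BomS6 and Adh (alcohol dehydrogenase, 5429 TPM), which were picked out after their values had been seen. Of these 19 genes, 5 had no name in the sources used here, so they were assigned to no class. The counts by class are therefore lower bounds.

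The 100 highest genes had short transcripts. The median transcript length was 741.5 bases over the 92 of them with an annotated length, against 1605 bases over 13128 listed genes. Lengths under 1000 bases made up 71.7% of those 92 and 26.1% of all. Without the ribosomal proteins, 29 genes with a length had a median of 1112 bases. The lists differed in length as well, with a median of 5503 bases over 12 neuron genes and 708.5 bases over 88 ribosomal protein genes. TPM divides by length, and the RNA was amplified before sequencing. The part of transcript length and of the amplification in these ranks and shares was not tested.

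Proteins of the cytosolic ribosome took the largest share of any list, between 27.4% and 37.0% of the listed TPM. Identifiers without a name could not enter this list, so the share is a lower bound. Of 90 genes, 78 had a median of at least 100 TPM, 67 of at least 1000 TPM, and 3 were at 0. The share was 29.4%, 28.1% and 33.8% on D3, 37.0%, 32.3% and 29.0% on D6, and 27.4%, 34.1% and 33.7% on D10. The libraries of each day thus overlapped with those of the others. The lowest value of 27 of the 78 genes fell in sham D10 r1 and that of 25 in sham D3 r2, and the highest value of 34 fell in sham D6 r1.

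The large subunit took a median share of 19.8% with 52 genes and the small subunit 12.5% with 38 genes. The medians of single genes ran from 110.1 TPM (RpL17) to 19193 TPM (RpL41) among large-subunit genes above 100 TPM, and from 151 TPM (sta) to 6734 TPM (RpS29) among small-subunit genes. RpL10Ab, the fly gene for the protein that carries the tag, was listed at 3590 TPM (3053 to 4969), within the range of its class. Reads of the transgene and of the endogenous gene were not told apart in this value.

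Energy metabolism came next among the functions of all cells. The 93 nuclear genes of the respiratory chain and ATP synthase took 3.27% to 4.17%, and the 8 mitochondrially encoded genes 1.54% to 3.41%. The tagged protein belongs to the cytosolic ribosome. How much of the mitochondrially encoded RNA was bound to tagged ribosomes was not tested. Subunits of ATP synthase led the nuclear genes with a median share of 1.21% and ATPsynC, its membrane ring, at 2653 TPM (2516 to 3187). Complex IV, cytochrome c oxidase, followed with 0.986% (COX7C, 1477 TPM), then complex I with 0.847%, complex III with 0.484% and complex II with 0.0888%. Mitochondrial transcripts were highest in sham D6 r1 (3.41%) and sham D10 r1 (2.89%). In these libraries mt:CoI, subunit I of cytochrome c oxidase, stood at 8412 and 9305 TPM, against 3864 to 6280 TPM in the other 7.

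Glycolysis and trehalose metabolism took a narrow 0.598% to 0.756%. Enolase (Eno) stood at 841 TPM, the aldolase Ald1 at 716 TPM and Gapdh1, the next enzyme of the pathway, at 667 TPM. Of the 16 genes of this list, 13 had a median of at least 100 TPM. The 9 genes analysed on the translation elongation factor list, which are not the whole family, took 1.23% to 1.46%. Its highest member was Tctp at 3009 TPM, which is not itself an elongation factor. The factor eEF2, which moves the ribosome along, stood at 1482 TPM.

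Metal handling and antioxidant defence took 1.27% to 2.99%, most of it MtnA. Both ferritin chains were high, Fer2LCH at 1234 TPM (1044 to 1470) and Fer1HCH at 1132 TPM (869 to 1357), as were the superoxide dismutase Sod1 at 1037 TPM and transferrin (Tsf1) at 821 TPM. Each of the other metallothioneins was highest in sham D6 r2. MtnB stood at 389 TPM in sham D6 r2 and at 0 to 3.41 TPM in the others, and MtnC at 506 TPM and at 0 to 1.25 TPM. MtnD stood at 70.9 TPM in sham D6 r2 and at 2.11 to 4.93 TPM in the others, and MtnE at 150.3 TPM and at 7.67 to 17.1 TPM.

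Transport genes of the membrane were led by Atpalpha, the catalytic subunit of the Na+/K+ pump, at 815 TPM (573 to 1126). The potassium channel Irk2 stood at 376 TPM and the gap junction proteins Inx3 and ogre at 172 and 167 TPM. All 12 listed genes of this list had a median of at least 10 TPM. Among lipid carriers the fatty acid-binding protein fabp reached 1111 TPM (965 to 1325) and the sterol carrier Npc2a 622 TPM.

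Immune peptides took 0.633% to 1.67% in these uninjured flies. The bomanin BomS3 stood at 1611 TPM (829 to 2445), the daisho peptides Dso2 and Dso1 at 1170 and 1088 TPM, vir-1 at 1099 TPM and Listericin at 871 TPM. Listericin was listed at 349, 751 and 978 TPM on D3, 578, 871 and 1324 TPM on D6, and 646, 1268 and 1679 TPM on D10. The antifungal peptide gene Mtk held 101, 108 and 371 TPM on D3, 204, 109 and 250 TPM on D6, and 205, 124 and 1281 TPM on D10. Both were highest in sham D10 r3, and so were DptA (310 TPM, against 2.28 to 84.4 TPM elsewhere) and the stress peptide gene TotA (383 TPM, against 88.9 to 295 TPM).

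Of the 18 antimicrobial, bomanin and Turandot genes with a median of at least 10 TPM, 15 were highest in sham D10 r3, as were 2.53% of all 5102 genes at that level. Among the same 18 genes, 16 had their highest day mean on D10, as did 24.9% of the 5102 genes. None was called in the test among days described below. The share of the antimicrobial and bomanin list was 0.763% ± 0.113 on D3, 0.952% ± 0.295 on D6 and 1.18% ± 0.418 on D10 (SD, n = 3 each). Every D10 library (0.910% to 1.67%) was above every D3 library (0.633% to 0.835%), and D6 (0.640% to 1.23%) overlapped with both. The list lacks part of the bomanin family. Another 6 bomanin genes from 10 TPM upwards, looked up after their values had been seen, enter neither the counts nor the share. BomS6 was the highest of them at 2192 TPM (1638 to 3119), with day means of 2025 TPM on D3, 2615 TPM on D6 and 2316 TPM on D10. Of these 6 genes, 5 were highest in sham D10 r3, 3 had their highest day mean on D10 and 0 were called.

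**Figure D3:**
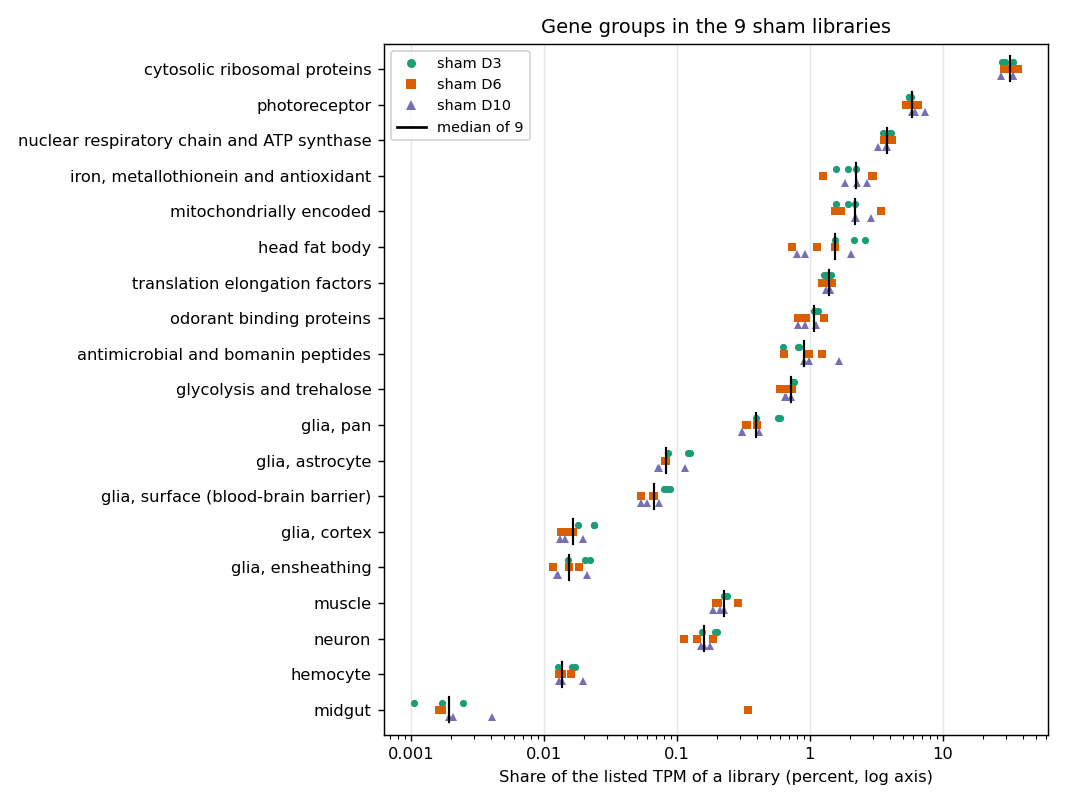
Share of the listed TPM (percent, log axis) taken by 19 gene lists in each of the 9 sham libraries, with circles for D3, squares for D6, triangles for D10 and a bar at the median of 9. Ribosomal proteins (27.4% to 37.0%) and photoreceptor genes (5.26% to 7.31%) lead, and the midgut list has a single point at 0.341%, sham D6 r2.

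Most genes varied little between the 9 libraries. The SD of log2(TPM + 1) had a median of 0.28 over the 4172 genes with medians from 10 to 100 TPM, 0.25 over 786 genes from 100 to 1000 TPM and 0.23 over 144 genes from 1000 TPM upwards. The corresponding medians within days were 0.29, 0.24 and 0.25, so spread within a day was as large as spread over all libraries.

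The steadiest gene above 100 TPM was Mdh2, the mitochondrial malate dehydrogenase. It was listed at 804, 884 and 928 TPM on D3, 910, 871 and 883 TPM on D6, and 848, 873 and 874 TPM on D10, an SD of 0.06 on the log2 scale. Also among the 10 genes of smallest spread, with SDs up to 0.09, were eIF3i of translation initiation (245 to 279 TPM) and the glutathione transferase GstE12 (410.0 to 479 TPM). Idh3b, GstO2, Glyp, the cyclophilin Cyp1, CG32267 and CG33199 belonged to them as well.

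At the other end, 13 of the 786 genes from 100 to 1000 TPM (1.65%) spanned 4-fold or more. Mtk spanned 12.6-fold. RpS3, a small-subunit protein, was listed at 598, 207 and 1073 TPM on D3, 943, 887 and 585 TPM on D6, and 1088, 1256 and 883 TPM on D10. It was thus low in sham D3 r2 while most ribosomal protein genes spanned far less. The beta-alanine gene b stood at 229, 423 and 117 TPM on D3, 71.5, 329 and 410 TPM on D6, and 388, 369 and 274 TPM on D10. Its partner in the same pathway, e, was lowest in the same library, sham D6 r1 (43.0 TPM), and highest in the same library, sham D3 r2 (207 TPM).

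Among genes from 10 TPM upwards the spread was largest for genes that dropped to 0 or nearly 0 in single libraries. The tetraspanin gene Tsp42Ee lay between 34.9 and 91.8 TPM in 7 libraries and at 0.000624 and 0.000617 TPM in sham D3 r2 and D6 r3. ND-13A, a complex I subunit, was listed at 0 TPM in sham D3 r1 and 1.14 TPM in sham D6 r1, and at 52.8 to 123 TPM in the others. CHOp24, fbp (fructose-1,6-bisphosphatase), Dtd, sqh (myosin regulatory light chain), Mst85C, CG18004 and CG1943 had such gaps as well, and DptA completed this group of 10. In all, 25 of 5102 genes (0.490%) were under 0.1 TPM in at least 1 library, 15 of them in a single library. A value of 0 in a table of estimates can be a failed estimate, and whether these were was not tested.

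**Figure D4:**
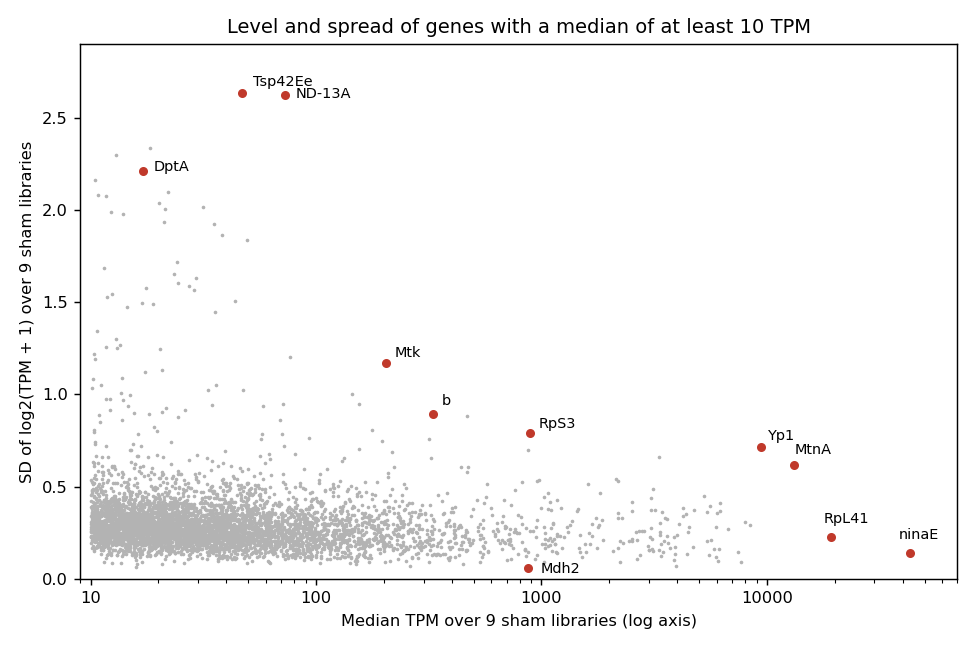
SD of log2(TPM + 1) over the 9 sham libraries against the median TPM (log axis), for the 5102 genes from 10 TPM upwards. Each gene is a grey point, and labelled genes, picked from those named in the text, are red. Mdh2 lies at the bottom (0.06), Tsp42Ee and ND-13A at the top (2.64 and 2.62), and MtnA and Yp1 above the other genes of their level.

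Genes that were low in most libraries and high in a single one gathered in sham D6 r2. Of 16 genes with a median under 10 TPM and a highest value of at least 100 TPM, 15 were highest there and 1 in sham D10 r1. They included midgut genes such as alphaTry, a trypsin (402 TPM in sham D6 r2 and at most 1.65 TPM elsewhere), and dhd, a thioredoxin of the female germline (558 TPM, at most 1.21 elsewhere). RpS5b, a ribosomal protein gene used mainly in the ovary, reached 215 TPM there, and MtnB and MtnC belonged to the same set. Of the histone gene His2A:CG33808 (278 TPM), near-identical copies exist, so its value is uncertain. Medians over the 9 libraries moved little without this library, with 99 of the 100 highest genes kept.

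The sham days were compared with limma, a linear model with moderated variance, on log2(TPM + 1). A call required day means at least 0.6 apart on the log2 scale and an adjusted p (Benjamini-Hochberg) no higher than 0.1. Only 2 of 11939 genes were called (0.0168%), while 308 had an unadjusted p under 0.05 (2.58%). None of the 100 highest genes was called, and 1 of them, Gs2, had an unadjusted p under 0.05. Both calls were of low genes, and they are named here although they fell below the limit of 10 TPM set for naming.

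Lpt held 3.63, 5.01 and 3.03 TPM on D3, against 0.0582 to 0.174 TPM in the 6 libraries of D6 and D10 (limma adjusted p = 0.0100). CG43750 held 1.35, 1.33 and 1.06 TPM on D3 and 0 to 0.275 TPM later (limma adjusted p = 0.0678). The sham D3 libraries did not overlap with the later sham libraries in either gene. In TBI flies Lpt stood at 4.66, 5.10 and 2.57 TPM on D3, 0.183, 3.74 and 0.121 TPM on D6, and 7.02 and 0.272 TPM on D10. CG43750 was at 0 in every TBI library but D6 r3 (0.486 TPM). The day pattern of sham was thus not repeated in TBI flies for either gene. With the replicate number as a block both calls were lost (limma adjusted p = 0.151 for Lpt and 0.369 for CG43750). That of Lpt was also lost when only genes with a mean of at least 1 TPM were tested (limma adjusted p = 0.430, and 0.00371 to 0.430 over its alternatives). That of CG43750 was lost without any library but sham D10 r1 or D10 r2 (limma adjusted p = 0.0274 to 0.620 over its alternatives). The count of calls was 6 without sham D10 r1, 4 without sham D10 r2 and 1 to 3 without any other library.

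In the top 100, Yp1, Yp3 and Gs2 had day means at least 0.6 apart on the log2 scale, Yp3 the most with 0.98. Fat body genes took 2.11% ± 0.529 on D3, 1.14% ± 0.414 on D6 and 1.25% ± 0.681 on D10 (SD, n = 3 each). Single libraries overlapped between all days.

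Glial markers were highest on D3. All 18 markers above 0 had their highest day mean on D3, where 50.2% of the 5102 genes from 10 TPM upwards did. None was called, and 7 had an unadjusted p under 0.05 (38.9%, against 2.58% of all genes tested). This number was 4 without sham D3 r1 or without sham D3 r2, and 11 without sham D10 r1. Gat stood at 238 ± 34.7 TPM on D3, 148 ± 5.72 TPM on D6 and 148 ± 23.5 TPM on D10 (SD, n = 3 each), and pippin at 74.5 ± 13.1, 46.8 ± 4.74 and 45.5 ± 5.21 TPM. For Gs2 the means were 3588 ± 759, 2406 ± 315 and 2252 ± 232 TPM (SD, n = 3 each).

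The share of pan-glial markers was 0.524% ± 0.110 on D3, 0.356% ± 0.0389 on D6 and 0.346% ± 0.0612 on D10 (SD, n = 3 each). Most of it was Gs2 (median share 0.298% of 0.397%), so it largely repeats the Gs2 means. Without Gs2 the list took 0.102% ± 0.0228 on D3, 0.0731% ± 0.00281 on D6 and 0.0803% ± 0.0334 on D10 (SD, n = 3 each), and the D10 libraries spanned all those of D6. Neuron markers took 0.183% ± 0.0251, 0.147% ± 0.0378 and 0.163% ± 0.0137 on the same days, and photoreceptor markers 5.63% ± 0.120, 5.95% ± 0.635 and 6.47% ± 0.742. The part of cell composition in the D3 levels was not tested.

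To place these levels beside injured flies, TBI libraries of the 3 days were set against the sham libraries with limma, in a fit with each day and replicate number as a block and the thresholds given above for calls. Sham D10 r3 had no TBI partner and dropped out of this fit. Over all genes 50 of 12665 were called (0.395%), 27 higher (0.213%) and 23 lower (0.182%) in TBI, and 1773 had an unadjusted p under 0.05 (14.0%). With upper-quartile scaling the balance turned, with 36 genes higher and 61 lower in TBI. The count of calls was between 0 and 16 when any library of D3 or D6 was left out, 0 of them without TBI D3 r1 or sham D3 r1.

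Few of the 100 highest sham genes differed much in TBI. In 96 of them the difference was within 0.6 on the log2 scale, and 97 of them were also in the top 100 of the TBI libraries. ninaE was the highest gene in 7 of 8 TBI libraries, with a median of 36875 TPM (22565 to 48334) there and 42952 TPM in sham. Its log2 difference was -0.35 (SE 0.22, limma adjusted p = 0.500, lower in 7 of 8 pairs), which did not pass. The days differed in this. On D3 ninaE stood at 29368, 23907 and 22565 TPM in TBI, against 39772 to 41839 TPM in sham libraries. In TBI it stood at 39276, 36404 and 48334 TPM on D6, which overlapped with sham, and at 37346 and 44202 TPM on D10. Single days were not tested. RpL41 differed by -0.02 (SE 0.17, limma adjusted p = 0.976, lower in 5 of 8 pairs), with 13982 to 28847 TPM in TBI and 12991 to 22136 TPM in sham libraries.

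Both calls among the 100 highest genes were lower in TBI. These genes were chosen by their sham level, which can favour a lower value in TBI. Over all genes with a sham median of at least 100 TPM, 1 call was higher and 14 were lower. From 10 to 100 TPM 5 were higher and 9 lower, and under 10 TPM 21 were higher and 0 lower. CG15201 was listed in TBI flies at 4021, 4162 and 4848 TPM on D3, 3324, 6869 and 6546 TPM on D6, and 3333 and 8819 TPM on D10. In sham flies its median was 8416 TPM (5484 to 10991), as given above. The log2 difference was -0.80 (SE 0.15, limma adjusted p = 0.0777, lower in 8 of 8 pairs), and TBI D6 r2, D6 r3 and D10 r2 lay within the sham range. The gene euc (3R, 18978273 to 18978809, minus strand) was listed in TBI flies at 1537, 1517 and 2001 TPM on D3, 1116, 2583 and 2717 TPM on D6, and 852 and 2573 TPM on D10. In sham flies euc stood at 3270, 3897 and 3178 TPM on D3, 1759, 3749 and 3393 TPM on D6, and 2179, 2922 and 3163 TPM on D10. Its log2 difference was -0.77 (SE 0.15, limma adjusted p = 0.0964, lower in 8 of 8 pairs). Both calls were lost, with the same direction, in 14 of 17 fits that left out a library, those of D3, D6 and D10 r1, where the adjusted p reached 0.267 for CG15201 and 0.283 for euc.

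MtnA, Obp44a and mt:CoIII did not pass the thresholds. MtnA had a median of 7714 TPM (2888 to 12104) in TBI and 13237 TPM in sham libraries, a log2 difference of -0.69 (SE 0.14, limma adjusted p = 0.105, lower in 8 of 8 pairs). Obp44a had 3082 TPM (1182 to 5380) in TBI and 5996 TPM in sham libraries, a difference of -0.76 (SE 0.22, limma adjusted p = 0.183, lower in 6 of 8 pairs). mt:CoIII, a cytochrome c oxidase subunit, had 3941 TPM (2873 to 8260) in TBI and 3126 TPM in sham libraries, a difference of 0.57 (SE 0.13, limma adjusted p = 0.105, higher in 8 of 8 pairs).

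**Figure D5:**
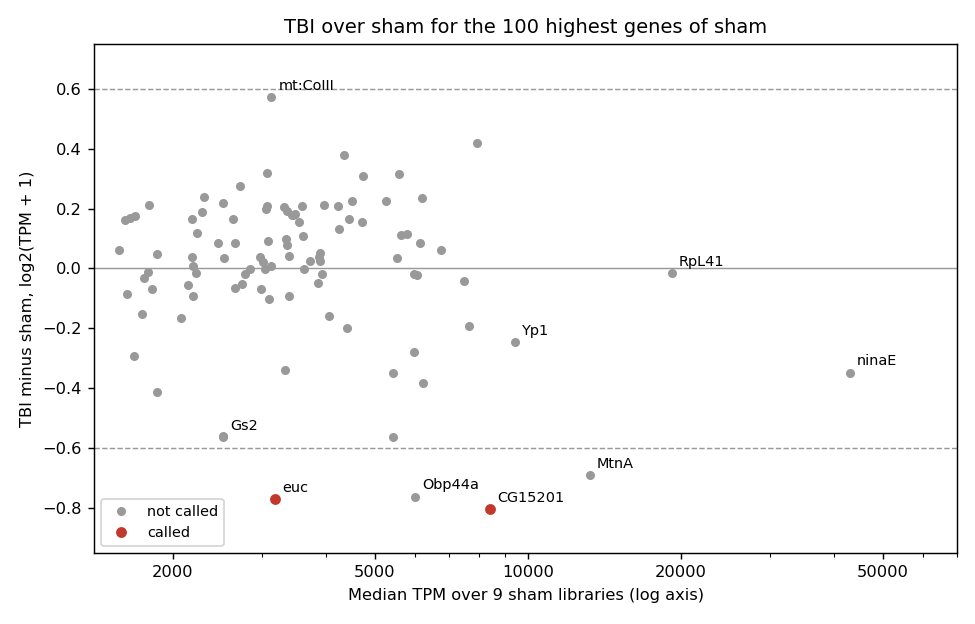
TBI minus sham difference on the log2(TPM + 1) scale against the sham median TPM (log axis) for the 100 genes highest in sham, each gene a point, with dashed lines at 0.6 either side of 0. CG15201 and euc (red) passed both thresholds, and MtnA and Obp44a lie beyond the lower line without passing the adjusted p.

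Of the 18 glial markers, 16 were lower in TBI and 0 were called, with a median log2 difference of -0.40 against 0.06 over all genes tested. An unadjusted p under 0.05 was found for 15 of them, against 14.0% of all genes. Gs2 had a median of 1937 TPM (1152 to 2701) in TBI and 2517 TPM in sham libraries, a log2 difference of -0.56 (SE 0.13, limma adjusted p = 0.116, lower in 8 of 8 pairs). For alrm the medians were 303 TPM in TBI and 433 TPM in sham libraries, a difference of -0.58 (SE 0.15, limma adjusted p = 0.140, lower in 7 of 8 pairs). For repo they were 44.4 TPM in TBI and 49.6 TPM in sham libraries, a difference of -0.40 (SE 0.15, limma adjusted p = 0.281, lower in 6 of 8 pairs).

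The median share of the pan-glial list was 0.288% (0.185% to 0.415%) in TBI and 0.397% in sham libraries, and without Gs2 it was 0.0590% and 0.0761%. For photoreceptor markers it was 5.30% (3.22% to 6.72%) in TBI and 5.91% in sham libraries, for muscle 0.290% and 0.226%, and for neurons 0.149% and 0.159%. The head fat body list took 0.946% (0.651% to 2.13%) in TBI and 1.56% (0.732% to 2.61%) in sham libraries. The midgut list took 0.0938% (0.00251% to 0.392%) in TBI and 0.00193% (0.00105% to 0.341%) in sham libraries. The germline gene dhd, at most 1.21 TPM in 8 sham libraries and 558 TPM in sham D6 r2, was listed in TBI flies at 1.06, 551 and 479.6 TPM on D3, 0.234, 0.280 and 0.554 TPM on D6, and 1541 and 0.587 TPM on D10. The part of such shifts in cell composition in the lower glial markers was not tested.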

How the data were processed

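The deposited table holds TPM values. Per the labels and the paper, the authors quantified single-end reads of 50 bases with Kallisto against FlyBase transcripts (release 6.14 is named in the processing notes) and summed transcripts to genes with tximport, after amplification of the RNA. No scaling was added. The reference annotation named 13127 of 13479 identifiers, the paper's tables another 133, and 219 remained unnamed. Positions refer to assembly release 6.

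Levels are medians over 9 libraries, shares are percentages of the listed TPM, and spread is the SD of log2(TPM + 1). Genes above 0 TPM were tested in limma 3.58.1 (R 4.3.3, trend on expression) with a pseudocount of 1, which understates changes of low genes. The fits were also run on simulated data with independent noise. That check does not cover the deviations that libraries here share. Calls needed an adjusted p of at most 0.1 and 0.6 on the log2 scale.

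Genes to be named were the 20 highest, the 10 most and 10 least variable (medians of at least 10 and 100 TPM), 10 with a single high library, the 5 highest of each list, all cell type markers, and calls among the 100 highest. The text names part of them and gives the others in counts, ranges and shares. A gene that the rule names is not reported here. The members and lists were chosen with earlier results of these data known. After the values were seen, the ribosomal list was widened to one omitted symbol form and a cyclophilin was taken off the cytochrome P450 list. Alternatives covered the pseudocount, a minimum mean of 1 TPM, scaling, thresholds, trend, block and each library left out. Figures were drawn with matplotlib 3.10.9.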

Additional observations from a re-analysis of the deposited data

Results flagged for a closer look

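In 58 sets of values over the 9 sham libraries, taken over the 3 days, the gap of the highest or lowest library to its neighbour was compared with Dixon's 95% limit. The limit was passed in 4 sets (6.90%), where chance alone passes about 1 in 20.

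In sham D6 r2 the summed level of the midgut list was 2916 TPM, against 8.94 to 34.5 TPM (median 15.5) in the other 8 libraries. The gene whe alone gave 1650 TPM of it. Since whe and lcs were put on the list with their behaviour known, the passing of this set was partly built in. The summed level of the Jonah and trypsin proteases, a digestive family that shares genes with that list, was 762 TPM in the same library, against 1.77 to 6.67 TPM (median 3.06). RpL41 was lowest in sham D10 r1 with 12991 TPM, against 17763 to 22136 TPM (median 19197) in the others. CG15201 was lowest in sham D6 r1 with 5484 TPM, against 7852 to 10991 TPM (median 8836). Causes of these values were not tested.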

How the results depend on the processing

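Among sham days, the count of 2 genes became 0 when only genes with a mean of at least 1 TPM were tested (182 at an unadjusted p under 0.05), 0 with a replicate block (381 at an unadjusted p under 0.05), 1 at thresholds of 1 and 0.05, and 1 without the trend in limma. Leaving out each library in turn gave 1 to 6. For TBI over sham, the count of 50 became 138 with the minimum mean (90 higher, 48 lower), 97 with upper-quartile scaling (36 higher, 61 lower), 0 at the stricter thresholds and 86 with no replicate block (61 higher, 25 lower, 33 of them among the 50). Leaving out each library gave 0 to 63, and leaving out sham D6 r2 and TBI D10 r1 together, chosen after seeing the data, gave 0 (1686 at an unadjusted p under 0.05). The causes of these changes were not tested. The log2 difference of CG15201 stayed between -0.89 and -0.73 and that of euc between -0.86 and -0.69 over 25 alternatives, and each kept its call in 8. Without the block, limma adjusted p was 0.129 for CG15201 and 0.175 for euc. Of 10 genes given with a TBI difference, RpL41 alone changed sign (-0.10 to 0.044 when each library was left out), and MtnA passed the thresholds with the minimum mean or without the trend and Obp44a with the minimum mean. With upper-quartile scaling alrm passed too. The balance of calls, 27 higher and 23 lower in TBI, became 37 and 38 with median-of-ratios scaling and turned to more lower than higher without sham D10 r2 (11 higher, 27 lower) or TBI D10 r2 (11 higher, 28 lower), and without those libraries of D3 or D6 that left any call. Same-numbered libraries correlated, after removing group means, by -0.0076 to 0.550 among sham days (over 0.1 in 7 of 9, own number best in 7). Between TBI and sham the range was -0.051 to 0.628 (over 0.1 in 6 of 8, own number best in 4). Most pairs thus share some deviation and others do not. The main sham fit was planned without a block, and the block in the TBI fit follows the study's methods. Levels depended little on scaling, on averaging by day or on single libraries. In all 11 such alternatives 99 or 100 of the 100 highest genes were kept, and the median ribosomal share stayed between 30.9% and 33.0%. The quantification behind the TPM values was not varied. All 18 glial markers stayed highest on D3 under both scalings, and 16 to 18 did without a library.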

Other observations

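Clock genes were read at a single time of day. At ZT0, Pdp1, an activator in the clock, had a median of 99.3 TPM (75.4 to 119), the light receptor cry 50.4 TPM (41.2 to 71.5), cyc 37.4 TPM, tim 20.8 TPM and cwo 18.7 TPM. Of the 9 clock genes listed, 5 had a median of at least 10 TPM and 1 was at 0. The list took 0.0235% to 0.0342% of the listed TPM.

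Detoxification genes were held at moderate levels. Of 35 glutathione S-transferase genes, 23 had a median of at least 10 TPM, led by GstD1 at 754 TPM (582 to 991). Of 78 cytochrome P450 genes, 27 reached 10 TPM and 5 reached 100 TPM, led by Cyp28d1 at 306 TPM (248 to 369) and Cyp9f2 at 201 TPM. Of 121 cuticle protein genes, 75 had a median of 0, and Cpr72Ec was highest at 255 TPM (220 to 379).

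Among organelle and protein-quality genes, the vacuolar proton pump list took 0.308% to 0.402%, led by Vha16-1, part of its membrane ring, at 735 TPM (650 to 794). Of 47 proteasome genes, 31 had a median of at least 10 TPM and 3 of at least 100 TPM, with Prosalpha1R at 123 TPM. The constitutive chaperone Hsc70-4 stood at 785 TPM (627 to 842) and Hsp83 at 234 TPM. Cytoskeletal genes were led by chic (profilin) at 736 TPM, alphaTub84B at 475 TPM and Act5C at 465 TPM, and septate junction genes, besides nrv2, by Lac at 87.3 TPM and Nrg at 73.9 TPM.

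Other chemosensory and non-coding genes were uneven. Of 50 odorant-binding protein genes, 19 had a median of 0, while Obp18a stood at 1074 TPM and Obp19d at 602 TPM. Of the 13 genes on the list of olfactory support cells, 5 were at a median of 0, among them Obp83a. The non-coding gene lncRNA:CR32368 had a median of 467 TPM and was lowest in sham D3 r1, at 120 TPM, against a highest value of 549 TPM. Of the sex-biased genes, Yp1 and Yp3 led with medians of 9412 and 3332 TPM. Below them, Sxl stood at 85.9 TPM (67.9 to 136), tra at 36.3 TPM and fru at 36.4 TPM.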
